A study of Homo sapiens with 6 samples.

Results

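Notch signalling was followed in LX-2 cells through 10 genes, taken by symbol from a table of 22701 genes. They were the receptors NOTCH1, NOTCH2 and NOTCH3, the ligands JAG1, JAG2 and DLL1, the DNA-binding factor RBPJ, and the target genes HES1, HEY1 and NRARP. LX-2 is a human hepatic stellate cell line, used to study the cells that lay down collagen in liver fibrosis. Polyadenylated RNA was sequenced from 3 libraries of cells given 5 µg/mL TGF-β and 20 µM LIG (ligustilide, a phthalide of Ligusticum and Angelica plants) and from 3 libraries of cells given 5 µg/mL TGF-β alone. The cytokine was thus present in both groups, no library without it was analysed here, and the microgram dose stands as the labels give it. The labels state neither the treatment time nor whether the libraries of a group came from separate cultures, so p-values rest on the spread among these 6 libraries alone.

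Notch receptors sit in the plasma membrane and are switched on by Jagged or Delta-like ligands on a neighbouring cell. Ligand binding lets ADAM proteases and then γ-secretase cut the receptor, and its freed intracellular part joins RBPJ and a Mastermind coactivator on DNA. The complex turns on HES and HEY repressors and NRARP, a feedback inhibitor. In the liver the pathway is best known for bile duct formation, and it has also been studied in stellate cell activation.

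The promoter of HES1, the classical Notch target, is shown first because HES1 had the largest difference of the 6 members tested. RBPJ binds a core written TGGGAA, given below in capitals on either strand (TTCCCA on the other). The stretches are from RefSeq (GRCh38.p14), read 5′ to 3′ along the gene. That of HES1 (chr3:194135948-194136147, plus strand) ends at the base before the transcription start. HES4 (chr1:1000138-1000217, minus strand) and HEYL (chr1:39639724-39639843, minus strand) are the other genes of the HES and HEY families with a match that were measured above the filter.
HES1: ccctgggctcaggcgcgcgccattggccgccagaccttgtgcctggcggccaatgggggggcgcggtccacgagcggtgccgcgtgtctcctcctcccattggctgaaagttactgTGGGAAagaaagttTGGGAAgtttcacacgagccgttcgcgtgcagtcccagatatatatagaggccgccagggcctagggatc
HES4: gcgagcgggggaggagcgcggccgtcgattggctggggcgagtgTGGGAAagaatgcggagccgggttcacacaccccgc
HEYL: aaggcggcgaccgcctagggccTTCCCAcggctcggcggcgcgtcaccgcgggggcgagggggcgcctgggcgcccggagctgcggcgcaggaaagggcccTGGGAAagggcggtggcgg
In HES1 the core occurred 2 times on the same strand, beginning 84 and 70 bases before the start, and the first was also a match to the longer GTGGGAA. The core TGGGAA was found on either strand in 24.0% of 35116 promoter windows of 300 bases, and 2.28% held it at least 2 times on 1 strand. GTGGGAA was in 6.25% of the windows. Of the 10 members, 8 had a window in the table, and TGGGAA was in that of HES1 and in 1 of 5 windows of RBPJ. These matches describe sequence, and binding was not measured.

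The deposited values are FPKM, fragments scaled to gene length and library total, so levels of different genes can be set side by side. Library totals lay between 38401783 and 39260090 fragments. Summed FPKM was 362034 in LIG replicate 3 and 348518 in TGF-β replicate 2, and 324022 to 328949 in the other libraries. LIG replicate 3 and TGF-β replicate 2 stood apart from the other 4 libraries on the first principal component (55.1% of the variance), and their deviations touch several Notch genes, as given below. Among stellate cell and fibroblast markers, 9 of 12 had a mean of at least 1 FPKM, with DES and RGS5 below and LRAT not among the 22701 genes. Of 8 endothelial markers 6 were measured and none averaged 1 FPKM, with a sum over the list of 0.383 to 0.548 FPKM in LIG libraries and 0.458 to 0.652 FPKM in TGF-β libraries. EPCAM and KRT19 of bile duct cells, APOA1 and CYP3A4 of hepatocytes and PTPRC of leukocytes were at 0.112 FPKM or less in every library. Other markers of these lists were measured: SERPINA1 and ASGR1 of the hepatocyte list were at 2.53 to 4.86 FPKM over the 6 libraries, and CD68 of the leukocyte list at 12.1 to 14.9 FPKM. The summed hepatocyte list was at 6.48 to 9.46 FPKM in LIG libraries and 6.07 to 7.25 FPKM in TGF-β libraries, and the leukocyte list at 13.8 to 15.2 FPKM in LIG libraries and 12.6 to 14.8 FPKM in TGF-β libraries. In such bulk RNA, fewer cells expressing a gene and less RNA per cell cannot be told apart.

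By RNA, the 4 Notch receptor genes were almost entirely NOTCH2, and the Jagged and Delta-like ligand genes were mostly JAG1. NOTCH2 made up 95.3% to 96.5% of the summed FPKM of the 4 Notch receptor genes, NOTCH4 included, in the 6 libraries. JAG1 made up 89.6% (LIG replicate 3) to 93.3% of the summed FPKM of JAG1, JAG2, DLL1, DLL3 and DLL4 in LIG libraries. In TGF-β libraries it made up 93.2% to 94.0%. DNER, a ligand-like gene at 12.6 to 16.1 FPKM over the 6 libraries, was not part of this sum. In order of mean level over all 6 libraries the members ran NOTCH2, JAG1, HES1, RBPJ, NOTCH1, DLL1, NOTCH3, HEY1, JAG2 and NRARP. Over the 6 libraries the ranges of the neighbours HES1 and RBPJ, NOTCH1 and DLL1, NOTCH3 and HEY1, and JAG2 and NRARP overlapped, and those of the other neighbours did not. NOTCH3, JAG2, HEY1 and NRARP were below the mean of 1 FPKM needed for testing, which left 6 members.

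**Figure D1:**
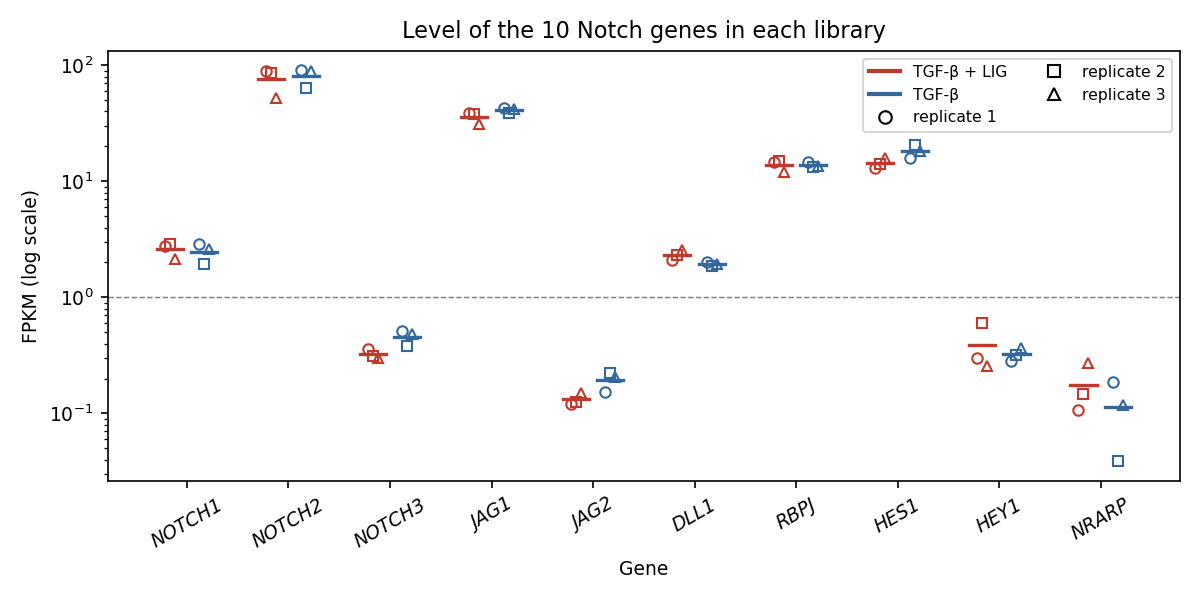
FPKM (log scale) of each gene in each library, with LIG libraries in red and TGF-β libraries in blue, a symbol for each replicate and a bar at the mean of 3. The dashed line marks 1 FPKM. NOTCH2 is highest, at 52.1 to 90.6 FPKM over the 6 libraries, and NRARP, with means of 0.175 FPKM with LIG and 0.114 FPKM without, and JAG2 overlap at the bottom.

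None of the 6 members tested passed after adjustment over all 10695 genes with a mean of at least 1 FPKM. The test was limma on log2(FPKM + 1), LIG minus TGF-β, two-sided, with Benjamini-Hochberg adjustment at 0.05; this scale understates the change of low genes. It called 0.692% of all genes tested (74), so 0 of 6 members is near the background. At an unadjusted limma p under 0.05 there were 2 members, HES1 and DLL1, against 8.41% of all genes tested. With voom on fragments recovered from the FPKM values 0 members passed, against 0.729% of all genes. Groups did not overlap for DLL1, which was higher, and JAG1, which was lower, 2 of 6 members against 15.8% of all genes tested. Overlap was read on FPKM as deposited, with no rescaling for the unequal summed FPKM of the libraries. Rescaled to TPM, 0 members passed, with HES1 at -0.35 (limma adjusted p = 0.191) and JAG1 at -0.22 (0.773). The median log2 change was -0.06 over the 6 members and 0.03 over all genes tested.

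HES1 encodes a basic helix-loop-helix repressor that answers to Notch (chromosome 3, 194136145 to 194138732, plus strand, GRCh38). It was at 13.1, 14.2 and 15.96 FPKM in LIG replicates 1 to 3, against 15.9, 20.7 and 18.3 FPKM in TGF-β replicates 1 to 3. The groups met only at their edges, where LIG replicate 3 lay just above TGF-β replicate 1. Summed FPKM was also larger in that LIG library, 362034 against 324022. Means were 14.4 ± 1.46 FPKM with LIG and 18.3 ± 2.39 FPKM without (SD, n = 3 each). The log2 change was -0.32 ± 0.11 (SE; 95% interval -0.57 to -0.07; limma adjusted p = 0.399). It did not pass over all genes. Each library held 796 to 1269 HES1 fragments, so counting error was small beside the spread between replicates.

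The levels of HES1 in the libraries that stand apart were the highest of their groups. HES1 is the shortest member, at 1575 bases as used for FPKM, and genes of this length class were raised in both libraries. In LIG replicate 3 against LIG replicates 1 and 2, the median difference in log2(FPKM + 1) was 0.28 over 1904 genes under 2000 bases and -0.23 over 1643 genes of 8000 bases or more. In TGF-β replicate 2 against TGF-β replicates 1 and 3, these medians were 0.18 and -0.12. HES1 itself differed by 0.22 and 0.26 in the same comparisons.

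When each library's trend on gene length was subtracted, a choice made after this pattern was seen, HES1 was lower with LIG. Its values on the adjusted log2 scale were then 3.88, 3.98 and 3.90 in LIG replicates 1 to 3, against 4.17, 4.35 and 4.33 in TGF-β replicates 1 to 3, and the groups no longer overlapped. The log2 change was -0.37 ± 0.06 (SE; limma adjusted p = 0.0153), in a fit that called 1.87% of all genes tested as lower with LIG. Without 1 library, this call was lost on leaving out LIG replicate 1 (adjusted p = 0.0679), TGF-β replicate 2 (0.0529) or TGF-β replicate 3 (0.0995). HES1 also passed, at a log2 change of -0.30 (adjusted p = 0.0455), when LIG replicate 3 and TGF-β replicate 2 were both left out, a fit that called 2.69% of all genes as lower. The 4 libraries that remain resemble each other within groups, which by itself makes the spread small. Over all 24 alternative fits, the adjusted p of HES1 ran from 0.0139 to 0.959 and its change was below 0 in each.

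**Figure D2:**
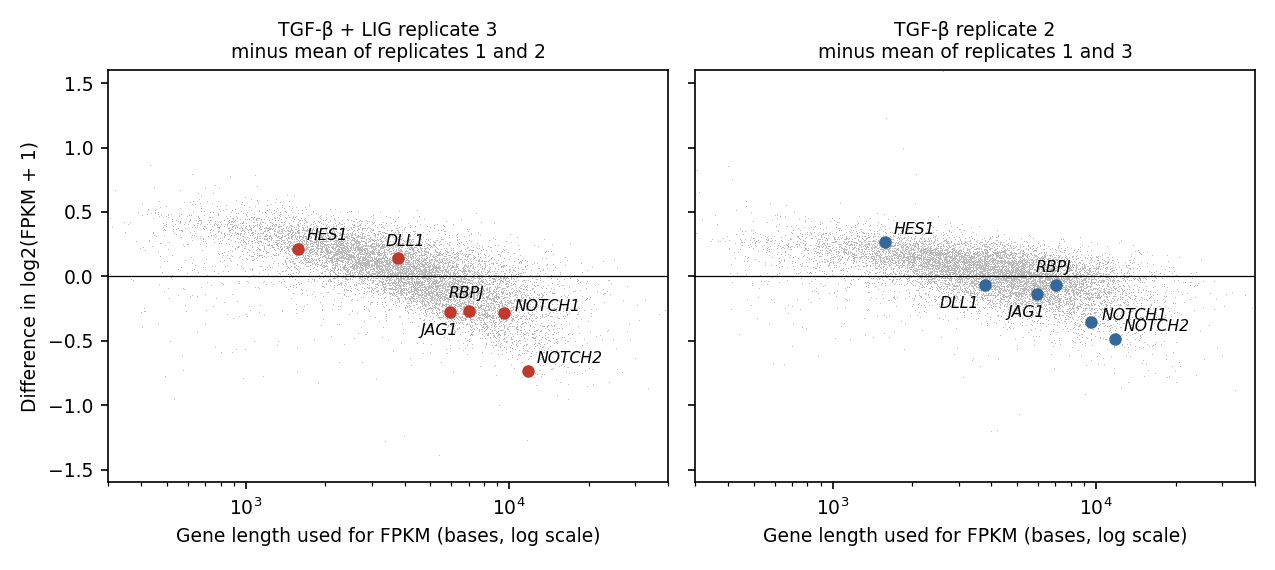
Difference in log2(FPKM + 1) of LIG replicate 3 from LIG replicates 1 and 2 (left) and of TGF-β replicate 2 from TGF-β replicates 1 and 3 (right) against gene length used for FPKM (log scale), with the 6 members tested as large points and all 10695 genes tested in grey. Both panels slope down with length. HES1 is at 0.22 (left) and 0.26 (right). NOTCH2 is at -0.74 (left) and -0.49 (right), below the medians of genes of 8000 bases or more, -0.23 (left) and -0.12 (right).

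Levels of some marker genes also did not overlap between the groups, which held for 15.8% of all genes tested. They are given as ranges, with no test. The summed level of the markers of bile duct cells, in which Notch is active, was 11.2 to 11.9 FPKM in LIG libraries and 13.6 to 13.9 FPKM in TGF-β libraries. The sum came from SOX9 and KRT7, 2 of the 4 markers of the list in the table, while EPCAM and KRT19 were near 0. Groups did not overlap for SOX9, at 9.80 to 10.6 FPKM in LIG libraries and 11.7 to 11.9 FPKM in TGF-β libraries, but did for KRT7, at 1.11 to 2.05 FPKM in LIG libraries and 1.75 to 2.11 FPKM in TGF-β libraries. Of the stellate cell and fibroblast list, 3 markers with larger differences, all lower with LIG, are named first after their values were seen. The collagen gene COL1A1 was at 496.2 to 514.8 FPKM in LIG libraries and 617.9 to 690.9 FPKM in TGF-β libraries, and COL3A1 at 9.04 to 11.8 FPKM in LIG libraries and 18.2 to 22.9 FPKM in TGF-β libraries. LOX, which crosslinks collagen, was at 13.5 to 15.9 FPKM in LIG libraries and 30.5 to 32.2 FPKM in TGF-β libraries. PDGFRB was also lower without overlap, at 2.68 to 3.86 FPKM in LIG libraries and 4.19 to 5.58 FPKM in TGF-β libraries. TIMP1 went the other way without overlap, at 138.4 to 178.6 FPKM in LIG libraries and 120.5 to 136.2 FPKM in TGF-β libraries. COL1A2 overlapped, at 3.24 to 5.08 FPKM in LIG libraries and 0.675 to 6.725 FPKM in TGF-β libraries. ACTA2 overlapped as well, at 2.75 to 3.23 FPKM in LIG libraries and 2.11 to 3.43 FPKM in TGF-β libraries. So did THY1, at 12.4 to 15.5 FPKM in LIG libraries and 15.2 to 16.2 FPKM in TGF-β libraries. The sum over that list overlapped between groups, at 2455 to 2814 FPKM in LIG libraries and 2620 to 2800 FPKM in TGF-β libraries. Most of this sum was VIM, at 1737 to 2091 FPKM over the 6 libraries. The part of these markers in the HES1 values was not tested.

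The other targets had few fragments. HEY1, a repressor related to HES1 (chromosome 8, 79764010 to 79767863), was at 0.302, 0.598 and 0.257 FPKM in LIG replicates 1 to 3, against 0.282, 0.320 and 0.364 FPKM in TGF-β replicates 1 to 3. LIG replicate 2 stood alone at the top with 57 fragments, the other libraries held 25 to 35, and the groups overlapped. NRARP, the feedback inhibitor of the Notch complex (chromosome 9, 137300482 to 137302251), was at 0.108, 0.148 and 0.270 FPKM with LIG in replicates 1 to 3, against 0.187, 0.039 and 0.117 FPKM with TGF-β alone. It rested on 4 to 28 fragments a library, and the groups overlapped. Over 3 libraries the NRARP fragments summed to 54 with LIG (95% exact Poisson interval 40.6 to 70.5) and 35 without (24.4 to 48.7), intervals that cover counting error only. When every gene was tested without the filter, NRARP had a limma adjusted p of 0.913 and HEY1 one of 0.942.

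NOTCH2 was the most abundant member and, of the 6 tested, the one with the widest interval of its change (chromosome 1, 119911553 to 120069626, minus strand). It was at 89.7, 85.4 and 52.1 FPKM in LIG replicates 1 to 3, against 90.6, 63.8 and 89.4 FPKM in TGF-β replicates 1 to 3. The lowest value of each group belonged to a library that stands apart, and the other 4 libraries lay within 85.4 to 90.6 FPKM. NOTCH2 is the longest member, at 11784 bases as used for FPKM. On the log2(FPKM + 1) scale it was lower by 0.74 in LIG replicate 3 and by 0.49 in TGF-β replicate 2. These differences were larger than the medians of genes of 8000 bases or more, -0.23 and -0.12. The log2 change with LIG was -0.12 ± 0.22 (SE; 95% interval -0.62 to 0.37; limma adjusted p = 0.958). Without LIG replicate 3 it was 0.12, the other direction. Without both of these libraries it was -0.04 (95% interval -0.12 to 0.04). With the length trend removed, NOTCH2 was still lowest in LIG replicate 3, at 5.91 against 6.42 and 6.35 in LIG replicates 1 and 2. TGF-β replicate 2 was then at 6.10, against 6.44 and 6.47 in TGF-β replicates 1 and 3. The change on this adjusted log2 scale was -0.11 (limma adjusted p = 0.825). NOTCH2 has near-identical partial copies, the NOTCH2NL genes, and how the authors assigned reads common to them is unknown; the 4 copies in the table reached at most 0.844 FPKM.

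NOTCH1 was far less abundant than NOTCH2. This receptor (chromosome 9, 136494433 to 136545786, minus strand) was at 2.79, 2.87 and 2.13 FPKM in LIG replicates 1 to 3, against 2.89, 1.93 and 2.59 FPKM in TGF-β replicates 1 to 3. Again LIG replicate 3 and TGF-β replicate 2 were the lowest, and the groups overlapped. Its log2 change was 0.05 ± 0.12 (95% interval -0.23 to 0.34; limma adjusted p = 0.976), and without TGF-β replicate 2 it was -0.06.

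NOTCH3, a receptor of mural and other perivascular cells (chromosome 19, 15159038 to 15200981, minus strand), was low in these cells. It was at 0.358, 0.315 and 0.299 FPKM in LIG replicates 1 to 3, against 0.511, 0.378 and 0.479 FPKM in TGF-β replicates 1 to 3. All LIG values lay below all TGF-β values, as did those of JAG2, though only through library totals at a tie of 34 fragments. This made 2 of 4 members under the filter, beside 4.04% of 12006 genes under the filter with LIG below TGF-β in this way. That background takes in genes with as little as 1 fragment, so the shares are not directly comparable. The ratio of mean NOTCH3 FPKM, LIG over TGF-β, was 0.71, on 102 to 171 fragments a library. When every gene was tested without the filter, NOTCH3 had a limma adjusted p of 0.553. NOTCH4, an endothelial receptor outside the 10 members, was also under the filter, at 0.151 to 0.159 FPKM with LIG and 0.204 to 0.222 FPKM without.

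JAG1, the most abundant Jagged or Delta-like ligand gene here (chromosome 20, 10637684 to 10673999, minus strand), is the gene most often mutated in Alagille syndrome, in which bile ducts are too few. It was at 38.5, 37.9 and 31.3 FPKM in LIG replicates 1 to 3, against 42.7, 38.6 and 42.2 FPKM in TGF-β replicates 1 to 3. The groups did not overlap in FPKM, but LIG replicate 1 and TGF-β replicate 2 nearly met. Summed FPKM was larger in that TGF-β library, 348518 against 325762. Means were 35.9 ± 4.01 FPKM with LIG and 41.2 ± 2.27 FPKM without (SD, n = 3 each). JAG1 had a log2 change of -0.20 ± 0.09 (95% interval -0.41 to 0.01; limma adjusted p = 0.622). Without LIG replicate 3 alone it was -0.10 (adjusted p = 0.543). Without LIG replicate 3 and TGF-β replicate 2 it was -0.15, at an adjusted p of 0.0496, and with the length trend removed -0.20, at an adjusted p of 0.163. JAG1 shares exon sequence with an unnamed locus on the opposite strand, and the use of strand in counting is not given in the sources used here.

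DLL1, a Delta-like ligand (chromosome 6, 170282206 to 170306565, minus strand), differed in the other direction. Its level was 2.11, 2.33 and 2.54 FPKM in LIG replicates 1 to 3, against 2.03, 1.86 and 1.96 FPKM in TGF-β replicates 1 to 3. Every LIG value lay above every TGF-β value, with LIG replicate 1 and TGF-β replicate 1 close together. DLL1 had a log2 change of 0.17 ± 0.07 (95% interval 0.002 to 0.34; limma adjusted p = 0.581), and it did not pass in any of its 23 alternative fits (adjusted p from 0.411 to 0.999). DLL1 made up 5.10% to 7.29% of the summed FPKM of JAG1, JAG2, DLL1, DLL3 and DLL4 in LIG libraries and 4.33% to 4.48% in TGF-β libraries. The highest share was in LIG replicate 3, which stands apart and where JAG1 was lowest, at 31.3 FPKM.

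JAG2, the second Jagged ligand (chromosome 14, 105140981 to 105168824, minus strand), was at 0.121, 0.126 and 0.150 FPKM in LIG replicates 1 to 3, against 0.153, 0.222 and 0.206 FPKM in TGF-β replicates 1 to 3. The groups touched: LIG replicate 3 and TGF-β replicate 1 each held 34 JAG2 fragments and differed only through their library totals. Summed over 3 libraries there were 89 fragments with LIG (95% exact Poisson interval 71.5 to 109.5) and 130 without (108.6 to 154.4). Without the filter JAG2 had a limma adjusted p of 0.621. JAG2 overlaps an unnamed locus on the same strand, and how fragments of the overlap were assigned is not given in the sources used here.

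RBPJ, through which all 4 receptors act (chromosome 4, 26163455 to 26435131, plus strand), was at 14.8, 14.9 and 12.1 FPKM in LIG replicates 1 to 3, against 14.6, 13.4 and 13.6 FPKM in TGF-β replicates 1 to 3. The groups overlapped and LIG replicate 3 was the lowest. For RBPJ the log2 change was 0.00 ± 0.09, with a 95% interval of -0.20 to 0.20 (limma adjusted p = 1.000). This interval was narrower than that of NOTCH2.

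**Figure D3:**
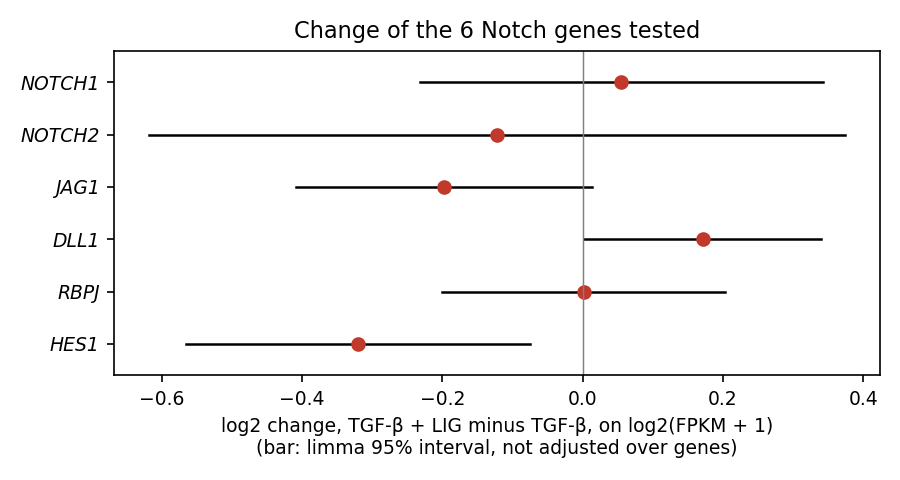
Change in log2(FPKM + 1), LIG minus TGF-β, of the 6 members tested, with the limma 95% interval (n = 3 each, not adjusted over genes). The intervals of HES1 (-0.57 to -0.07) and DLL1 (0.002 to 0.34) leave out 0 before adjustment, and none of the 6 passed after it.

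The wider pathway was read from a list of 56 further genes, of which 53 were in the table and 42 had a mean of at least 1 FPKM. None of the 42 passed in either direction by limma, and 3 had an unadjusted limma p under 0.05 (LFNG, DNER and NEURL1B), beside 0.692% and 8.41% of all genes tested, so neither count is above the background. Their median log2 change was 0.00, with 22 genes above 0 and 20 below, beside 0.03 over all genes tested. Groups did not overlap for 3 higher and 3 lower of the 42, against 15.8% of all genes in either direction.

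Among genes that modify the receptor with sugars, LFNG had the smallest p of the pathway list. This fringe glycosyltransferase alters which ligands a Notch receptor answers to. It was at 4.20, 4.15 and 4.54 FPKM in LIG replicates 1 to 3, against 5.34, 5.02 and 5.85 FPKM in TGF-β replicates 1 to 3. No LIG value reached a TGF-β value. The log2 change was -0.27 ± 0.07 (limma adjusted p = 0.264). POGLUT1, which adds glucose to the receptor, was at 5.35 ± 0.46 FPKM with LIG and 5.08 ± 0.11 FPKM without (SD, n = 3 each; limma adjusted p = 0.927). POFUT1, RFNG, LFNG and POGLUT1 made up the 4 of 5 tested, and MFNG was under the filter.

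Among ligand-like genes, DNER was the only 1 of 5 tested. This membrane protein with EGF repeats, described as a neuronal Notch ligand, was at 14.3, 16.1 and 15.6 FPKM in LIG replicates 1 to 3, against 12.6, 13.9 and 13.2 FPKM in TGF-β replicates 1 to 3. Its log2 change was 0.20 ± 0.07 (limma adjusted p = 0.448), with no overlap between groups. DLL3, DLL4 and DLK2 were under the filter, and DLK1 was not among the 22701 genes.

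All 9 genes of receptor cleavage were tested, and their changes lay between -0.12 and 0.12. NCSTN, the γ-secretase subunit nicastrin, was at 21.3 ± 0.31 FPKM with LIG and 23.0 ± 0.80 FPKM without (SD, n = 3 each; limma adjusted p = 0.738). FURIN, the protease that cuts the receptor on its way to the surface, was at 52.6 ± 2.17 FPKM with LIG and 48.4 ± 2.53 FPKM without (limma adjusted p = 0.744). Of 13 genes of endocytosis and turnover 10 were tested, with changes from -0.18 to 0.16. NEURL1B, an E3 ubiquitin ligase for Notch ligands, was at 5.46 ± 0.39 FPKM with LIG and 6.33 ± 0.31 FPKM without (limma adjusted p = 0.537). DTX2, a Deltex ubiquitin ligase, was at 2.15 ± 0.13 FPKM with LIG and 1.81 ± 0.15 FPKM without (limma adjusted p = 0.592).

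All 15 nuclear cofactors were tested, with a median log2 change of 0.01. The Mastermind coactivator MAML2 was at 4.62, 4.30 and 3.16 FPKM in LIG replicates 1 to 3, against 5.38, 4.46 and 5.12 FPKM in TGF-β replicates 1 to 3 (log2 change -0.26 ± 0.12, limma adjusted p = 0.616). The lowest value of each group, too, was in LIG replicate 3 or TGF-β replicate 2, and at 10723 bases MAML2 is a long gene. MAML1 was at 10.2 ± 1.23 FPKM with LIG and 9.43 ± 1.12 FPKM without (SD, n = 3 each; limma adjusted p = 0.899).

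The 3 other HES and HEY genes that could be tested had changes below 0, as HES1 did, and none passed. Changes were below 0 for 4187 of all 10695 genes tested. HEYL was at 0.857, 0.881 and 1.05 FPKM in LIG replicates 1 to 3, against 1.38, 0.986 and 1.06 FPKM in TGF-β replicates 1 to 3 (log2 change -0.15, limma adjusted p = 0.755). HES4 was at 2.26, 2.32 and 3.04 FPKM in LIG replicates 1 to 3, against 2.66, 3.31 and 2.73 FPKM in TGF-β replicates 1 to 3 (log2 change -0.14, limma adjusted p = 0.821). Both had overlapping groups. HES6 had a log2 change of -0.05. HES2, HES7 and HEY2 were under the filter, and HES3 and HES5 were not among the 22701 genes. HES7 had a higher mean with LIG (0.199 FPKM) than without (0.133 FPKM), with overlapping groups. HES2 and HEY2 held at most 2 fragments a library.

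**Figure D4:**
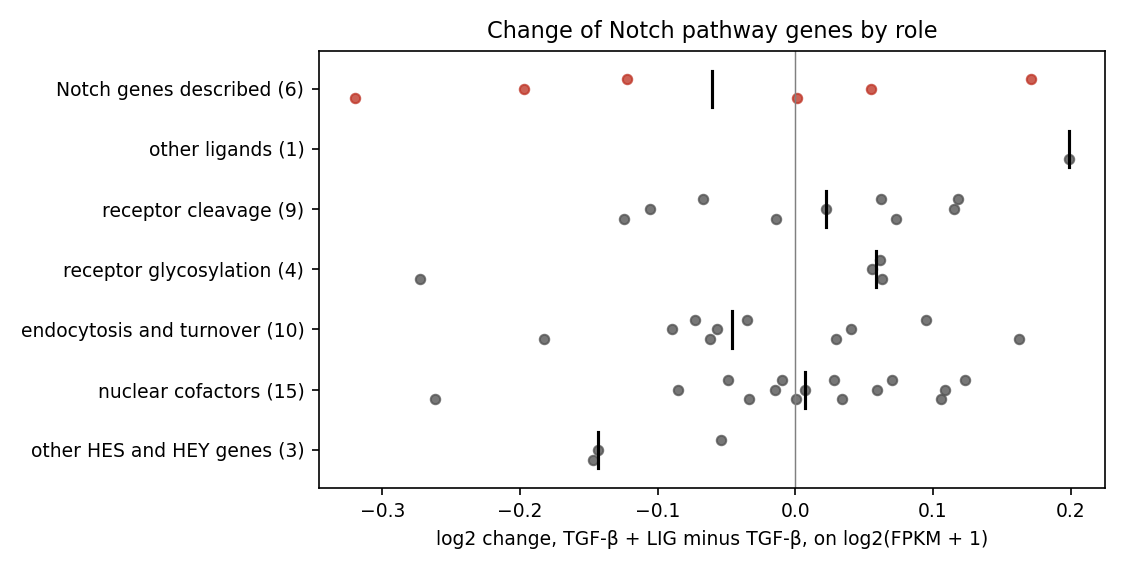
Change in log2(FPKM + 1), LIG minus TGF-β, of Notch pathway genes with a mean of at least 1 FPKM, by role, each point a gene and each bar the median of its role. The 6 members are in red, from HES1 at -0.32 to DLL1 at 0.17, and the 42 other genes in grey, from LFNG at -0.27 to DNER at 0.20.

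The genes whose levels over the 6 libraries most resembled those of HES1 were the tubulin gene TUBA1A (Pearson r = 0.987), HAPLN3 (0.986) and CD24 (0.985), out of 10692 genes compared on log2(FPKM + 1). TUBA1A was at 102.8, 104.3 and 118.9 FPKM in LIG replicates 1 to 3, against 115.8, 140.2 and 125.9 FPKM in TGF-β replicates 1 to 3. These correlations are a description over 6 libraries and share the deviations of LIG replicate 3 and TGF-β replicate 2.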

How the data were processed

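The authors deposited FPKM values, a column for each library, as the headers of the table show. For the work of the authors, the submitters' processing notes list fastp, HISAT2 2.1.0, GRCh38.p13 and DESeq2 with no roles; counting tool, annotation and strand use are not given in the sources used here. The 10695 genes averaging at least 1 FPKM over all libraries were tested with limma 3.58.1 (R 4.3.3) on log2(FPKM + 1), group only, with a mean-variance trend. Libraries were grouped by their titles. An exact permutation test of 3 against 3 cannot go below a two-sided p of 0.1.

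Because a gene's FPKM moves in steps of 1 fragment, whole fragments, gene lengths and library totals could be recovered. Of 2538 gene lengths checked, 2521 came out whole within 0.05 base. Fragments served for depth and for voom. Per-library lowess (span 0.3) gave the length trend. Replicates differed by more than counting noise. Coordinates are from GENCODE 29 (GRCh38), and promoters from RefSeq, GRCh38.p14. All 10 members are named; other pathway genes are named where they had 1 of the 2 smallest p of their role. Members, lists, tests and alternatives were chosen with earlier results of these data known, and removal of the length trend after seeing the data.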

Additional observations from a re-analysis of the deposited data

How the results depend on the processing

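Of the 17 alternatives first chosen, leaving out LIG replicate 3 and TGF-β replicate 2 together was the one under which members passed (2, HES1 and JAG1, both lower with LIG). Removal of the length trend gave 1 (HES1), and on then leaving out each library in turn, between 0 and 1. HES1 and JAG1 stayed below 0 and DLL1 above 0 in every fit that held them; DLL1 was not tested at a mean of at least 5 FPKM.

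The count of all genes that changed, 74 as reported, was 14 with no filter on level, 22 with the replicate block, 497 without both libraries that stand apart and 280 with the length trend removed. On leaving out each library it ran between 11 (without TGF-β replicate 3) and 93 (without LIG replicate 3), and up to 265 with the length trend also removed. The cause was not tested, beyond fewer samples or more genes tested in some fits. Whether replicate numbers pair the libraries could not be decided. Deviations from group means correlated at 0.469, -0.574 and -0.337 for replicates 1, 2 and 3, and LIG replicate 3 went with TGF-β replicate 2 (0.675). These correlations carry the deviations of the libraries that stand apart, which could hide a pairing.

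The direction of RBPJ, close to 0, turned on rescaling to TPM (-0.019), quantile normalization (-0.028), median centring (-0.020) and removal of the length trend (-0.0027); without single libraries it ran from -0.045 to 0.091. NOTCH1 ran from -0.063 to 0.151 and NOTCH2 from -0.285 to 0.124 in such fits. HEY1, without LIG replicate 2, was at -0.05 and NRARP, without both libraries that stand apart, at -0.03, both above 0 as reported. NRARP, JAG2 and HEY1 rested on 4 to 57 fragments a library, where counting error is largest relative to the level.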
